A study of Triticum aestivum with 78 samples.

Results

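B68 is 1 of 39 wheat (Triticum aestivum) lines from the mapping population RL4452 x AC Domain, and 2 of the 78 arrays were hybridised with its RNA. Seed was harvested from tagged field-grown spikes 5 days after anthesis, and each line has 2 biological replicates on Affymetrix wheat arrays. Rows of the lines stood in a field lattice with 49 entries, repeated 3 times, and the labels do not say from which of these repeats an array came, so the p-values measure the spread between the 2 arrays of a line. The 2 B68 arrays were compared with the 66 arrays of 33 other lines. All groups share the population, the field trial, harvest at 5 days after anthesis and the absence of any treatment, and the labels set them apart only by line. The arrays also differ in scan day, and a few in their wash record. The 10 arrays of H8, H9, G30, G13 and B33 were left out of the comparison, since earlier results of these data had shown the replicate arrays of those lines apart. B68 was proposed for description with its high level of hsp16.9A already known, so that gene is described first and supports nothing.

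Small heat shock proteins bind other proteins that are unfolding and keep them from clumping until larger chaperones refold them. Plants switch these genes on within minutes of heat and other stress that damages proteins, and also during the maturation of seed and pollen, without stress. hsp16.9A is a cytosolic member of this family in wheat. In a mapping population each line carries its own mixture of the alleles of both parents, so a transcript whose level follows 1 allele tends to divide the lines into a high and a low group, whereas a response to conditions need not.

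The deposited intensities were taken to the log2 scale, on which the median of all values was 5.05. The arrays carry no detection calls, so a level under 5.05 is not shown to lie above background. B68 replicate 1 had a median intensity of 33.7 and B68 replicate 2 one of 32.1, the lowest of the 78 arrays, whose medians reached 36.4. The instrument record lists the wash of B68 replicate 2 as aborted, and it gives replicate 1 and replicate 2 arrays different project entries. Their scan days differed too, except that DH91 replicate 2 was scanned on the same day as some replicate 1 arrays. Of 61115 probe sets tested, 52.5% had both B68 arrays on the same side of the mean of the other lines' arrays of the same replicate number. Across probe sets the differences on the 2 B68 arrays correlated at r = 0.46. Over the 34 lines this r ran from -0.06 (F82) to 0.69 (A91), and B68 stood 8th. The share on the same side ran from 43.8% (B10) to 64.7% (A35), so neither measure sets B68 apart. The differences on B68 replicate 1 correlated with those on single replicate 2 arrays of other lines at r = -0.31 to 0.29. Those on B68 replicate 2 correlated with single replicate 1 arrays of other lines at r = -0.34 to 0.38. Each B68 array was thus more like its partner than like any other line's array of the partner's replicate number. Arrays of the same replicate number were not compared in this way. This is a description across genes, which are not independent replicates.

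Levels differed between B68 and the mean of the other lines at 876 probe sets (1.43% of those tested) with a limma adjusted p below 0.05. B68 was higher at 547 (0.895%) and lower at 329 (0.538%). Both B68 arrays lay on the same side of the other lines at every one of the 876. The higher probe sets were more numerous and the lower ones larger in size. The median difference was 0.80 log2 units among the higher and 1.20 among the lower, and a 4-fold difference was reached by 27 higher (0.0442% of those tested) and by 78 lower probe sets (0.128%). At the threshold itself, Ta.1048.1.S1_at (+0.37) lay just inside with an adjusted p of 0.04994, and TaAffx.4464.1.S1_at (-0.44) just outside with 0.05004. The count rests on having both arrays, since 328 probe sets passed without B68 replicate 1 and 188 without B68 replicate 2. Measured against the spread between line means in place of the spread between replicate arrays, 3 probe sets passed (0.00491%).

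**Figure D1:**
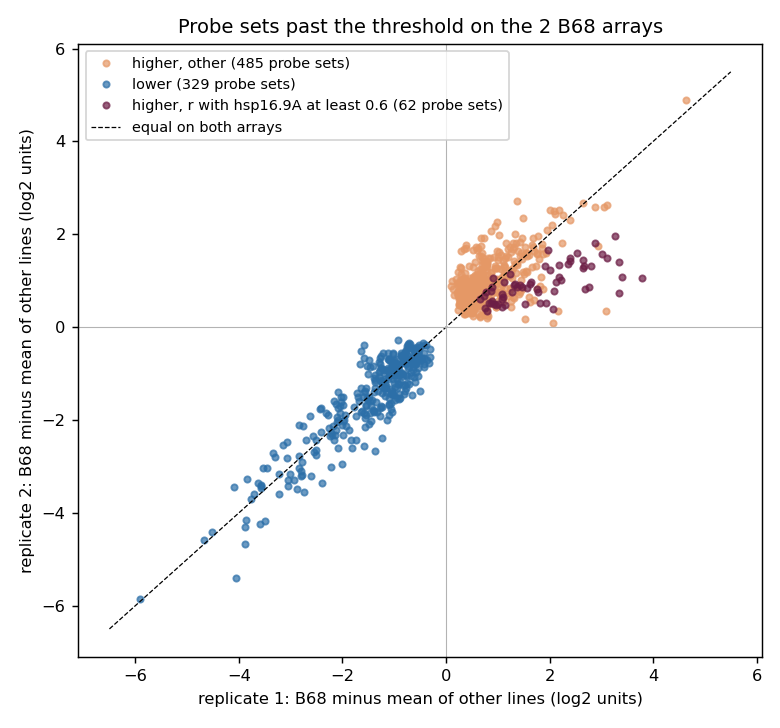
The difference from the other lines (log2 units) on B68 replicate 1 (x axis) is plotted against that on B68 replicate 2 (y axis) for the 876 probe sets past the threshold, and all lie at the lower left or the upper right of the origin. The lower probe sets follow the diagonal, while the 62 that follow hsp16.9A lie toward replicate 1.

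The probe sets that passed with 1 B68 array were looked up on the array left out. Without replicate 1, 221 were higher and 107 lower (0.537% together), and on the unused array 201 of the 221 and 106 of the 107 (99.1%) had the same direction. Without replicate 2, 102 were higher and 86 lower (0.308% together), and 97 of the 102 (95.1%) and 85 of the 86 (98.8%) repeated their direction. Lower levels in B68 thus repeated at close to their size. Their median was -2.02 on replicate 2 and -1.74 on the unused replicate 1, and in the other order -2.04 and -1.96. Higher levels repeated in direction at a smaller size, with a median of 1.01 on replicate 2 and 0.52 on replicate 1, and in the other order 1.52 and 0.85.

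B68 stood 10th of the 34 lines by the number of probe sets past the threshold. The median line had 535, the lowest 127 (F38a) and the highest 2945 (A35). With scan day as a term in place of the replicate number, B68 had 577 and stood 4th. The number of differences is therefore not what sets B68 apart among these lines.

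**Figure D2:**
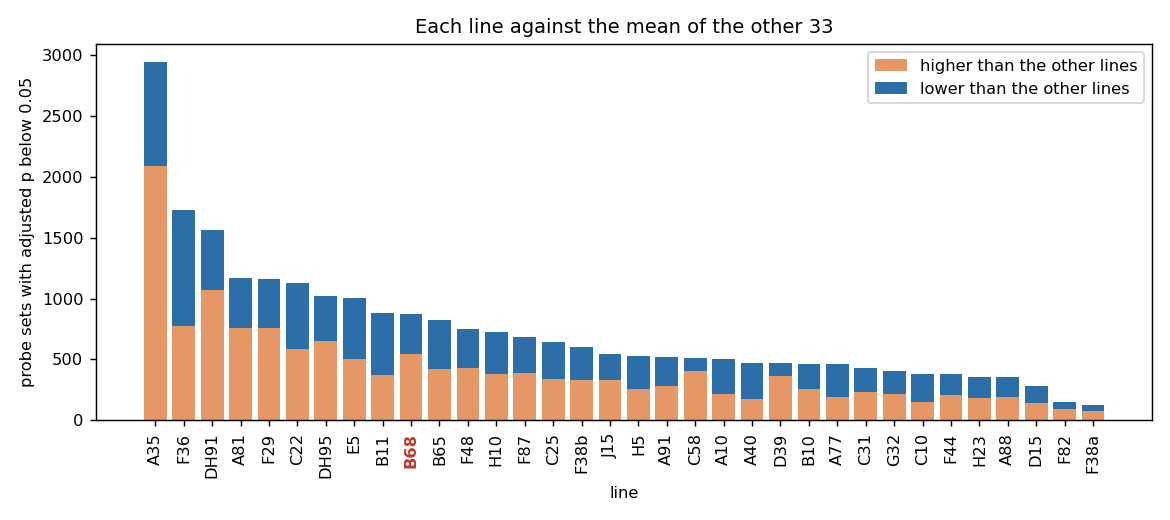
Bars give, for each of the 34 lines, the number of probe sets past the threshold against the other lines, divided into higher and lower. B68, with 547 higher and 329 lower, stands 10th, between the lowest line (127) and A35 (2945).

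hsp16.9A (LOC543277) is represented by 1 probe set, Ta.24332.1.S1_at. Its log2 level was 7.47 on B68 replicate 1 and 6.24 on B68 replicate 2, against a lowest of 3.33, a median of 4.15 and a highest of 5.69 over the 66 arrays of the other lines. Both B68 arrays lay above every other array. The mean of B68 was 6.85 ± 0.87 (SD, n = 2), which is 2.62 ± 0.31 log2 units (SE) or 6.13-fold above the other lines. The difference was 3.27 on replicate 1 and 1.96 on replicate 2. B68 was proposed for this level, so the difference is a description and its passing the threshold supports nothing. Since most other arrays lay under 5.05, where a level is not shown to exceed background, the fold is measured from a dim reference.

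By line mean, the next levels of hsp16.9A after B68 were D39 at 5.41 ± 0.32, F44 at 5.12 ± 0.77, B11 at 5.12 ± 0.78, DH95 at 5.10 ± 0.63 and H5 at 5.09 ± 0.85 (SD, n = 2 each). Below B68, neighbours in this order differed by less than the larger of their SDs, while B68 and D39 differed by more than either SD. Among the lines left out, H9 had the highest mean at 4.85 ± 1.32, below that of B68. When the difference was tested against the spread between the line means, the adjusted p was 0.424.

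**Figure D3:**
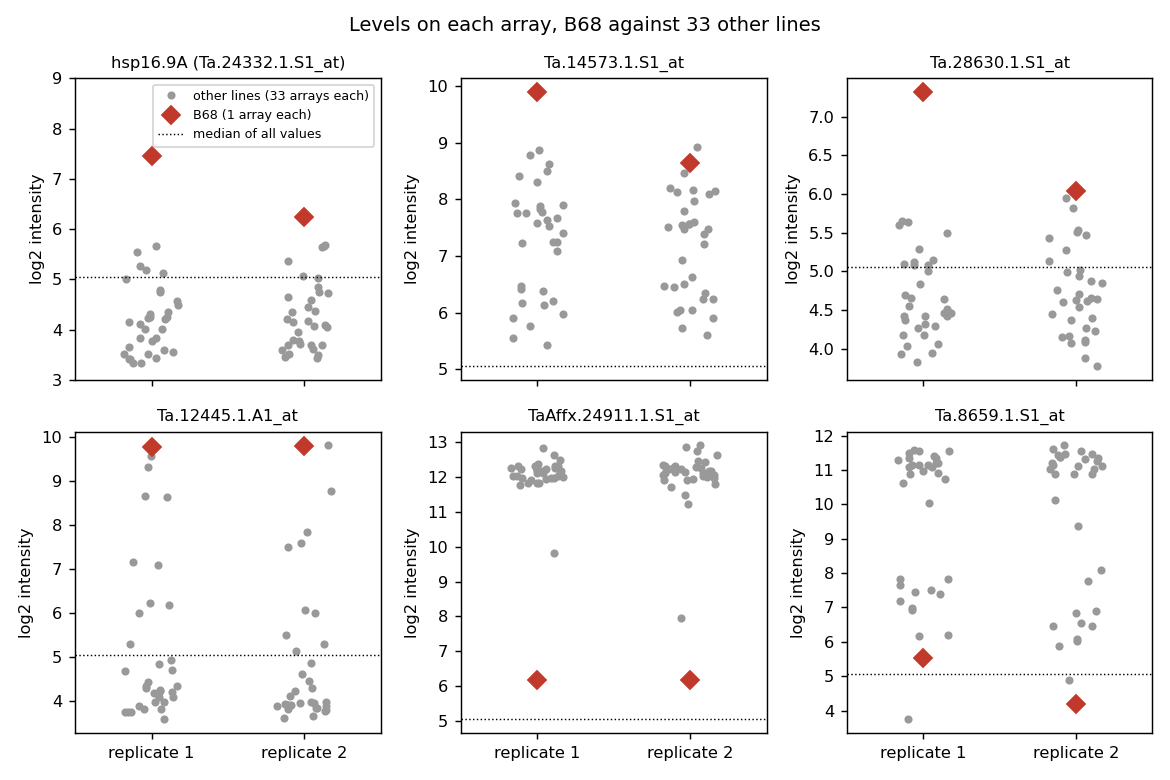
Each panel gives log2 levels of 1 probe set on the arrays of replicate 1 and replicate 2, with 33 grey points of other lines and a red diamond for B68 in each column, and a dotted line at 5.05. B68 lies above all other arrays for hsp16.9A (7.47 and 6.24) and Ta.28630.1.S1_at, below all for TaAffx.24911.1.S1_at (6.17 and 6.17), and at the edge of a group of other lines for Ta.12445.1.A1_at and Ta.8659.1.S1_at.

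To find the probe sets whose pattern was most like that of hsp16.9A, Pearson's r was taken over the 66 arrays of the other lines with the replicate number removed, so that no B68 value entered. This correlation reached 0.6 for 127 probe sets (0.208%), hsp16.9A included. The points share the array and its scan day, and each line gives 2 of them. On the B68 arrays, 122 of the 127 lay above the other lines on both arrays, where 26.1% of all probe sets did, and B68 was the highest line at 85, where it was at 2.88% of all. Their median difference was 0.82, against -0.01 over all probe sets, and 62 passed the threshold as higher, as 0.895% of all did. Each of these counts includes hsp16.9A, for whose level the line was proposed. Transcripts that vary together with hsp16.9A among the other lines were mostly above them in B68 as well. Because B68 was proposed for a high hsp16.9A, high levels of its correlates follow in part from that choice. The counts are therefore a description and support nothing.

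The 8 probe sets most like hsp16.9A had r between 0.84 and 0.88 and Spearman's rho between 0.82 and 0.90, and between 0.82 and 0.88 for r without the 2 arrays farthest from the median. All 8 passed the threshold as higher, and the annotation gives none of them a gene. Ta.14573.1.S1_at (r = 0.88) had 9.90 and 8.64 on the B68 arrays and a lowest of 5.43, a median of 7.48 and a highest of 8.93 elsewhere, so replicate 1 lay above all other arrays and replicate 2 within their range. It was 2.05 higher in B68 (adjusted p = 0.00813). Ta.24801.1.S1_at (r = 0.88) had 9.34 and 6.62 against 3.86, 5.59 and 8.21, with the same order, and was 2.42 higher (adjusted p = 0.00506). Both B68 arrays were outside the range of the others for Ta.28630.1.S1_at, with 7.32 and 6.03 against 3.77, 4.63 and 5.95, and for Ta.132.1.S1_a_at, with 13.44 and 12.99 against 11.08, 12.09 and 12.87. Ta.28630.1.S1_at was 1.99 higher (adjusted p = 1.747e-07) and Ta.132.1.S1_a_at, a bright probe set, 1.18 higher (adjusted p = 4.783e-04). Ta.9140.1.A1_at and Ta.9140.2.S1_at, from the same cluster of sequences, were 2.06 and 2.38 higher, Ta.6123.1.A1_at 1.27 and TaAffx.18332.1.S1_at 1.91. Of the 8, 7 passed also without replicate 2 and 1 passed without replicate 1.

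The 62 probe sets that followed hsp16.9A and passed the threshold came from 52 sequence clusters. They lay farther from the other lines on B68 replicate 1 at 61 of 62, with a median of 1.70 there and 0.87 on replicate 2. The other 485 higher probe sets had 0.68 on replicate 1 and 0.84 on replicate 2, and 154 of them lay farther on replicate 1. Within lines, over the 33 differences between the replicate arrays of the other lines, the median correlation of the 62 with hsp16.9A was 0.57, and over the 33 line means it was 0.78. The 62 were chosen by their correlation over these same arrays, so both medians are in part fixed by that choice and are given as a description. The differences within lines also span the different project entries of the instrument record. Among the 329 lower probe sets none reached a correlation of 0.6 with hsp16.9A, and their median was 0.01.

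As a mean over this group less the hsp16.9A probe set itself, in log2 units from the mean of the other lines, B68 replicate 1 was at 1.69 and B68 replicate 2 at 1.02. The members were kept for being higher in B68, so a high place of the B68 arrays was fixed by that choice, and nothing is read from it. The values serve to show which other arrays come near, namely F44 replicate 1 (1.03), D39 replicate 2 (0.92) and an array of a line left out, G30 replicate 2 (0.88).

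**Figure D4:**
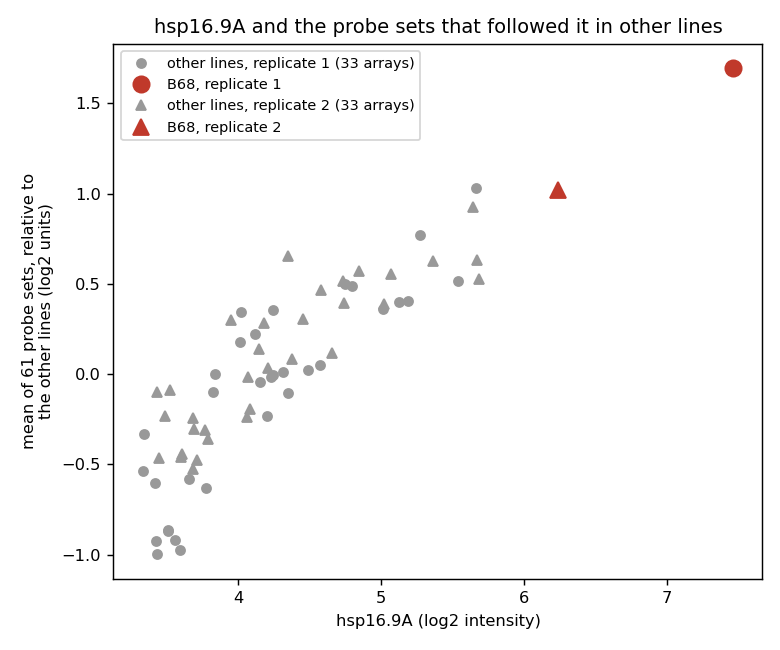
For each array in the comparison the log2 level of hsp16.9A (x axis) is plotted against the mean difference of the 61 other probe sets of its group (y axis, log2 units). B68 is in red and other lines are in grey, and the lines left out are not drawn. The B68 arrays (7.47, 1.69 and 6.24, 1.02) lie at the upper right by the choice of gene and group, and among the other arrays F44 replicate 1 comes nearest on the y axis (1.03).

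The array's annotation gives a gene symbol to 1273 of the probe sets, and of these 17 (15 genes, 1.34% of the probe sets) were higher and 15 (12 genes, 1.18%) lower in B68, against 0.895% and 0.538% of all probe sets. Nearly all of these symbols are locus numbers without a described function in the annotation used here. Of the 12 largest higher ones, hsp16.9A included, 8 belong to the group that follows hsp16.9A. LOC543404 (Ta.28083.1.S1_at) had 10.43 and 9.38 on the B68 arrays, against a lowest of 5.32, a median of 7.79 and a highest of 10.17. Replicate 1 lay above all other arrays and replicate 2 within their range. At this probe set B68 was 2.30 ± 0.50 (SE) higher (adjusted p = 0.00773), by 3.11 on replicate 1 and 1.49 on replicate 2. The other probe set of LOC543404, TaAffx.51843.1.S1_at, differed by +0.41 and did not pass (adjusted p = 0.693). Its highest line mean was 4.70, under 5.05. LOC543421 (+1.81, adjusted p = 0.0455), LOC542846 (+1.76, 0.0246), LOC543368 (+1.64, 0.0227), LOC542835 (+1.23, 0.0369) and LOC543244 (+1.01, 0.0366) had B68 as the highest line and a larger difference on replicate 1. Ta.261.1.S1_at, the other probe set of LOC542846, was 2.06 higher and did not pass (adjusted p = 0.0653). LOC780660 was called by 2 of its 3 probe sets, at +0.98 and +0.85. TaAffx.2456.1.S1_at, the first of these, differed by a like amount on both arrays (0.90 and 1.06).

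LOC543477 (Ta.201.1.S1_at) was 1.25 higher (adjusted p = 0.00689), with 7.29 on replicate 1, above all other arrays, and 5.47 on replicate 2, where the others had a median of 5.12. It passed against the spread between line means too (adjusted p = 0.0391), as did Ta.8714.1.S1_at, an unannotated probe set at 8.09 and 5.36 where the others had a median of 4.94. LOC543477 did not pass with scan day as a term (adjusted p = 0.0871). Both calls rest on replicate 1, since the differences on replicate 2 were 0.34 and 0.34. LOC542836 (+1.13, adjusted p = 0.00142) also had B68 as the highest line. LOC542941 (+1.69, 0.0330) and LOC100037572 (+1.14, 0.00223) did not follow hsp16.9A, with r of -0.07 and -0.10, and B68 stood 6th and 5th of the lines. Of these 12 higher genes, 7 passed without replicate 2 and 1, hsp16.9A, passed without replicate 1. With scan day as a term 6 of the 12 passed, with all lines 8 and without the block 7, and LOC543421 passed in none of these 3 settings (adjusted p = 0.0625, 0.0782 and 0.0876).

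The lowest annotated probe set was Ta.28514.1.A1_at of LOC780602. It had 5.07 and 5.91 on the B68 arrays, against a lowest of 5.29, a median of 8.61 and a highest of 9.78. B68 was the lowest line, 2.47 ± 0.33 (SE) below the others (adjusted p = 8.283e-06), and 12 other lines lay nearer to B68 than to the median line. The gene has 5 probe sets, which disagree. Ta.28514.2.S1_at passed too (-0.79, adjusted p = 0.0117), while Ta.28514.2.S1_s_at (-0.47), Ta.5937.1.S1_x_at (-0.10) and Ta.5937.2.S1_at (+0.07) did not pass. LOC606352 was the only one of 11 called genes with several probe sets for which all passed, at -0.91, -0.90 and -0.54. The first of these 3 lost its call with scan day as a term (adjusted p = 0.0845), with all lines (0.172) and without the block (0.0577). The second lost its call with scan day as a term (0.0694) and with all lines (0.341), and kept it without the block (0.0456).

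Further lower genes were LOC543492 (-1.60, adjusted p = 0.00411), LOC542839 (-1.55, 0.0461), LOC543145 (-1.19, 0.0160), LOC542838 (-1.14, 0.0135) and LOC542911 (-0.59, 0.00817), none with B68 as the lowest line. The other probe sets of LOC542838 did not pass, at -0.35 for TaAffx.130064.3.S1_s_at and -0.20 for TaAffx.130064.3.S1_x_at. B68 was the lowest line for LOC778392 (-1.60, 1.321e-04), LOC543256 (-0.90, 0.00263) and LOC780647 (-0.72, 0.00344). LOC778392 (Ta.351.2.S1_x_at) had 7.91 and 7.42 on the B68 arrays and a lowest of 7.86, a median of 9.30 and a highest of 10.71 elsewhere, so replicate 2 lay below all other arrays and replicate 1 beside the lowest. Its other probe sets did not pass, at -0.64 for Ta.351.1.S1_at (adjusted p = 0.293) and -0.04 for Ta.351.3.S1_at (0.984), and 10 of the 11 called genes with several probe sets had an uncalled one. Of the 12 lower annotated probe sets, 3 passed without replicate 1, and 1 of these, Ta.28514.1.A1_at, also passed without replicate 2. With scan day as a term 8 of the 12 passed, with all lines 5 and without the block 10, and LOC542839 passed in none of these 3 settings (adjusted p = 0.358, 0.118 and 0.0693).

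The largest difference of all was at TaAffx.24911.1.S1_at, to which the annotation gives no gene. Its level was 6.17 on both B68 arrays, and 7.95, 12.16 and 12.91 were the lowest, median and highest of the other lines. B68 was 5.88 ± 0.21 (SE) log2 units below the others, or 59.1-fold by size (adjusted p = 7.774e-22), and it passed under each of the other settings tried. Only H5, at 8.88 ± 1.32 (SD, n = 2), lay nearer to B68 than to the median line. Among the lines left out, G30 replicate 2 (6.73), G13 replicate 1 (6.85) and B33 replicate 1 (8.01) were also low, while the other array of each of these lines was not. The SDs of those lines were 3.81 for G30, 3.82 for G13 and 2.78 for B33.

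The next lowest probe sets were levels that B68 shares with a group of lines. Ta.8659.1.S1_at had 5.54 and 4.19 on the B68 arrays against 3.75, 10.93 and 11.72. B68 was the lowest line (-4.73, adjusted p = 1.207e-05), beside C31 at 5.15 ± 1.97 and H5 at 5.54 ± 0.93, and 11 other lines lay nearer to B68 than to the median line. The same count was 13 for Ta.10945.2.A1_x_at (-4.62) and Ta.10945.2.A1_a_at (-4.47), which share sequence, 15 for TaAffx.113846.1.S1_s_at (-4.28) and 12 for Ta.6952.1.S1_a_at (-4.10). The levels of B68 at these last 4 lay between 2.80 and 4.32, and its mean at Ta.8659.1.S1_at was 4.87, all under 5.05, so these differences are measured against a level not shown above background. The pair from the same sequence cluster lost its calls with either B68 array left out.

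On the high side, Ta.12445.1.A1_at stood at 9.79 and 9.80 on the B68 arrays, against 3.59, 4.24 and 9.82. B68 was the highest line (+4.76, adjusted p = 6.02e-15), next to B65 at 9.69 ± 0.18 and C10 at 9.06 ± 0.39, and 6 other lines lay on its side. The median of the others is under 5.05, so this difference is measured from a level not shown above background. TaAffx.58902.1.S1_x_at (+2.87) and Ta.6210.1.S1_at (+2.82) had 16 other lines nearer to B68 than to the median line, and Ta.9397.1.S1_at (+2.74) and Ta.27333.2.S1_at (+2.66) had 14. At Ta.9397.1.S1_at, 18 other lines lay with B68 above a gap between line means, so the count of 14 leaves some of them out. Ta.9397.1.S1_at lost its call with either B68 array left out. None of these 5 has an annotated gene, and their correlations with hsp16.9A lay between -0.32 and 0.10.

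The called probe sets differed in how many lines share the level of B68. A line was counted as sharing it when its mean lay nearer to B68 than to the median line. By this rule the count cannot exceed 16, and it runs low where B68 is with the majority. At Ta.9188.2.S1_at, for example, 26 other lines lay with B68 above a gap between line means. The count also runs high where the difference is small, as at TaAffx.2456.2.S1_at (difference 0.0066, count 16). No share over all probe sets was taken, so the counts describe the called probe sets and do not show an excess of sharing. At the 329 lower probe sets, the count was 6 or more at 294 (89.4%), 1 to 5 at 35 and 0 at none, with a median of 12. At the 547 higher probe sets, it was 6 or more at 248 (45.3%), 1 to 5 at 278 and 0 at 21, with a median of 5. B68 was the highest line at 327 of the higher (59.8%) and the lowest line at 65 of the lower (19.8%), where it was the highest at 2.88% and the lowest at 1.67% of all probe sets. Over the 34 lines the corresponding medians were 40.1% and 35.5%, and 4 lines exceeded B68 in the former share and 26 in the latter. Both arrays lay outside the range of all other arrays at 80 probe sets (0.131%), 70 above and 10 below, of which 54 and 7 passed the threshold.

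**Figure D5:**
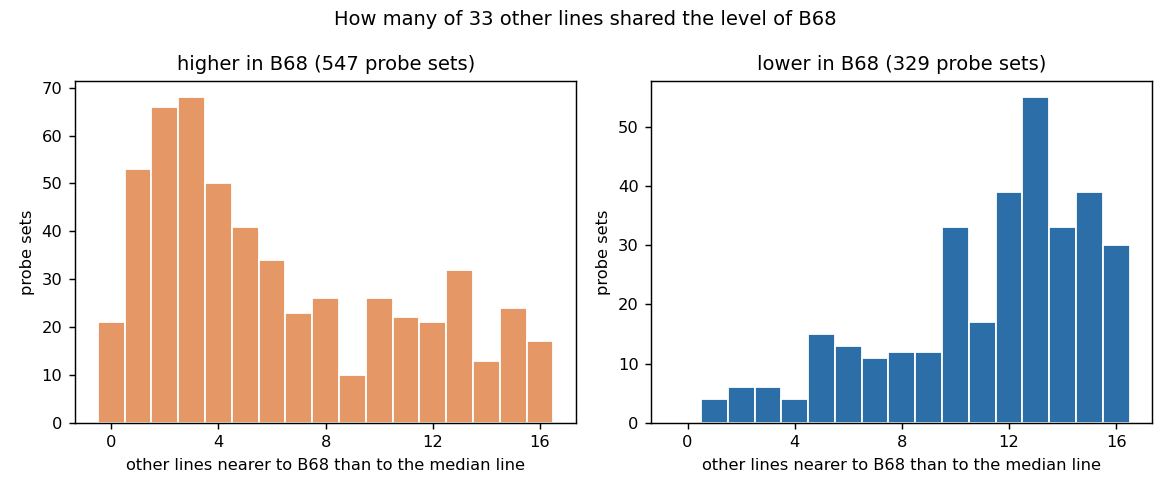
The x axis gives the number of the 33 other lines whose mean lies nearer to B68 than to the median line, and the y axis the number of called probe sets, separately for those higher and lower in B68. Higher probe sets pile up at low numbers (median 5) and lower ones at high numbers (median 12).

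Among the 33 other lines alone, 221 probe sets divided the lines into 2 classes, with at least 6 lines on each side and a gap between neighbouring line means of at least 0.5 log2 units and 2 residual SDs. Both B68 arrays fell in the same class at 220 of them, the high class at 74 and the low class at 146. The exception was TaAffx.110751.1.S1_x_at, with 10.59 and 10.14 around a boundary of 10.56. Of these 221, 9 probe sets from 7 sequence clusters were looked at for B68 with their division of the lines already known, and it was in the high class on both arrays at all 9. They include Ta.9188.2.S1_at (8.34 and 8.18), Ta.12020.1.A1_at (7.35 and 7.56), Ta.30774.1.S1_at (7.11 and 7.60), TaAffx.58902.1.S1_x_at (9.99 and 9.73), Ta.6215.1.A1_at (9.16 and 9.35), Ta.12445.1.A1_at (9.79 and 9.80) and Ta.22975.1.S1_at (13.09 and 12.57).

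Only 5 of the called probe sets at 1.5 log2 units or more above the others lay outside all other arrays on both replicates. Besides hsp16.9A and Ta.28630.1.S1_at these were TaAffx.93351.1.A1_at (8.55 and 8.39, others up to 7.98), TaAffx.1297.1.A1_at (6.75 and 6.80, others up to 6.65) and Ta.24899.1.A1_at (9.51 and 9.59, others up to 9.44). The first of these 3 followed hsp16.9A (r = 0.74), and the others did not (0.10 and -0.11). Below all other arrays, besides TaAffx.24911.1.S1_at, the largest differences were Ta.7351.2.S1_at (4.51 and 4.69, others from 4.71 to 11.11) and Ta.7694.1.S1_s_at (4.67 and 4.67, others from 4.69 to 8.72). For this last pair the distance from the lowest other array was small, and 9 and 14 other lines shared the side of B68. These were chosen after their values were seen.

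Genes with a described name were searched in 14 lists, which hold most of the 200 probe sets (102 genes) that have one. Among those 200, 1 passed the threshold (0.5%, against 1.43% of all probe sets), and it was hsp16.9A. The list of small heat shock proteins, chaperones and immunophilins has only 1 other member, FKBP70, an immunophilin that helps proteins fold. FKBP70 had 11.49 and 11.48 on the B68 arrays, where the other lines ran from 10.04 to 11.70, which puts both within the range of the other lines and B68 as the highest line, and the difference of 0.52 did not pass (adjusted p = 0.251). The arrays therefore measured the named heat shock genes of this list through 2 probe sets only, and other families of heat shock proteins carry no name in this annotation.

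The other 13 lists had 0 calls by limma. At an unadjusted p below 0.05, which 5518 of all 61115 probe sets reached, there were 5 of 12 probe sets for tubulin, actin and profilin, 2 of 12 for antioxidant and detoxification genes, 1 of 36 for photosynthesis, 1 of 18 for histones and 0 in each of the other 9 lists. TUBA, an alpha-tubulin, was the highest named gene after hsp16.9A, with 10.01 and 9.18 against 7.23, 8.79 and 10.06 (+0.83, adjusted p = 0.336), and it correlated with hsp16.9A over the other arrays (r = 0.69). TUB, another tubulin, had 12.27 and 12.25 against 11.31, 11.88 and 12.38 (+0.39, adjusted p = 0.215). CAT1, a catalase that breaks down hydrogen peroxide, had 8.89 and 9.22 against 7.89, 8.55 and 9.40 (+0.50, adjusted p = 0.426). B68 had the highest line mean for these 3 genes, with every array within the range of the others. The 12 probe sets for tubulin, actin and profilin went both ways, with differences from -0.27 to 0.83. Of them, 6 lay above the other lines on both B68 arrays and 4 below, where 26.1% and 26.4% of all probe sets did.

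The storage protein list (17 probe sets) had a median difference of -0.15, and 10 of 17 lay below the other lines on both B68 arrays, where 26.4% of all probe sets did. The list of inhibitors, thionins and serpins (17) had -0.21, at 0.07 on replicate 1 and -0.80 on replicate 2. These genes are active in the starchy endosperm and were often dim at this stage, with 4 of 17 and 10 of 17 at a mean level of 5.05 or more, and with a few high arrays among the other lines. The probe set of the amylase and trypsin inhibitor ATI with the lowest difference, Ta.23798.1.S1_at, had 5.03 and 4.28 in B68 against 3.92, 4.60 and 11.22 (-0.63, adjusted p = 0.924), so B68 lay beside the median of the others and not beside their mean. Pur-A1, a purothionin, had 3.82 and 2.86 against 2.94, 3.27 and 8.96 (-0.57, adjusted p = 0.916). The gliadin gene gli-2 (Ta.6699.1.S1_at) had 3.90 and 3.65 against a median of 3.94, and Serpin-Z2B differed by -0.16 (adjusted p = 0.743), both under 5.05 on every B68 array.

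Starch and sugar genes (12 probe sets, median 0.07) included GLU1A, a beta-glucosidase, with 8.64 and 9.72 against 6.11, 8.65 and 10.51 (+0.77, adjusted p = 0.594), and GBSS, the granule-bound starch synthase that makes amylose, with 9.44 and 9.71 against 7.18, 9.46 and 11.59. GLU1A stood 7th of the 34 lines by mean, and for GBSS both arrays lay close to or above the median of the others. Histone genes (18, median -0.13) were represented by H2A-9 at -0.15 (adjusted p = 0.538) and by H2A-2 at -0.60 (0.592), for which B68 was the lowest line with 8.06 and 7.68. Photosynthesis genes (36 probe sets, median -0.01) mostly come from the Rubisco large subunit rbcl, and Ta.3807.1.A1_at had 4.61 and 5.10 against a median of 4.57 (+0.31, adjusted p = 0.394). PRK, an enzyme of carbon fixation, stood at 11.03 and 11.18, close to the median of 11.23.

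The remaining lists had medians of 0.12 for antioxidant genes, 0.11 for tubulin, actin and profilin, 0.09 for translation, 0.05 for dehydrins and late embryogenesis proteins, 0.05 for hormone genes, -0.02 for tapetum and pollen and -0.00 for lipid transfer and pathogenesis-related genes. Their members with the smallest p were CL9 (+0.22, adjusted p = 0.655) for translation, Em, a late embryogenesis protein (-0.19, 0.646), GA20ox1d, a gibberellin 20-oxidase (+0.26, 0.586), raftin1a, a protein of the anther tapetum (+0.15, 0.794), and wci (-0.17, 0.955). The zinc finger gene WZF1 had 8.49 on replicate 1 and 6.75 on replicate 2 against 4.44, 7.11 and 10.43, so its B68 arrays lay on opposite sides of the median.

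As a check of the labelled tissue, genes of developing seed and its green coat were compared on the B68 arrays. PRK, FBP (9.41 and 9.63), GBSS and ALP, an avenin-like protein (Ta.27777.1.S1_at, 10.19 and 10.14), were well above 5.05. Many other probe sets of the same lists were not, since 4 of 17 for storage proteins and 11 of 36 for photosynthesis had a mean level of 5.05 or more, and gli-2 (3.90 and 3.65 at Ta.6699.1.S1_at) was dim. The 2 probe sets of raftin1a, the anther marker, were under it, at 3.73 and 3.69 for Ta.4195.1.S1_at and 3.27 and 3.19 for Ta.4176.1.S1_x_at. None of these differed past the threshold between B68 and the other lines. In whole seed, fewer cells of a type and less RNA per cell cannot be told apart.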

How the data were processed

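Per the submitters' processing notes, the authors made the deposited intensity values with RMA, which corrects background, normalises the arrays and summarises probes (the version is not given in the sources used here). Values ran from 5.04 to 27696, so log2 was taken without a constant. The 61290 rows include 111 controls and 64 reporters, which did not enter the tests. Gene symbols came from the array's annotation (1273 probe sets with 1 symbol, 0 with several, the rest with none), and names from RefSeq genes of the assembly IWGSC CS RefSeq v2.1 (1272 matched). Probe sequences were not analysed here, so a base difference under a probe was not tested.

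The contrast of B68 with the equally weighted mean of 33 other lines was fitted with limma 3.58.1 in R 4.3.3 (data.table package in version 1.17.8), with line as factor and replicate number as block, on 68 arrays, and p-values were adjusted by the Benjamini-Hochberg method over 61115 probe sets. Other steps ran in Python 3.11.15 with pandas 2.3.3, numpy 2.4.6 and matplotlib 3.10.9. The fit was tested on simulated data. The number of arrays limits the precision.

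Named probe sets were hsp16.9A, the 12 highest and 12 lowest with a symbol and the 6 highest and 6 lowest of all past the threshold with a highest line mean of at least 5.05, the called or smallest-p member of each list, the 4 highest and 4 lowest named genes, and the 8 most correlated with hsp16.9A. Members and lists were chosen with earlier results of these data known, and list patterns were corrected after matching. Alternatives varied the block, scan day, lines, spread, replicates, wash record, weights, normalisation, dim filter and variance model.

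Replicate numbers coincide with 2 project entries of the instrument record, and the arrays were scanned on 15 days. The differences between replicate 1 and replicate 2 correlated between lines at r = -0.50 to 0.62 (median 0.15, 322 of 561 pairs of lines over 0.1), and that of B68 with the other lines at a median of 0.29 (25 of 33 over 0.1), so the numbers do not pair the arrays by the rule that every pair exceed 0.1.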

Additional observations from a re-analysis of the deposited data

How the results depend on the processing

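The count of 876 probe sets was 577 with scan day as a fixed term (503 shared with the 876), 343 with all 39 lines (342 shared), and 3 against the spread between line means. Leaving out a B68 array gave 188 to 328, and leaving out any array of another line 829 to 964. Within replicate number 1 alone, with 1 array a line and the spread between lines, 9 passed, and within replicate number 2 alone 2. Without the replicate block 641 passed, all among the 876. Scan day as a random block (869), arrays with an odd wash record left out (879), array weights (883), median centring (857), quantile normalisation (810), a dim filter (1036) and trended, robust variance (834) stayed within 1.5 times. hsp16.9A was higher by 2.62 against the spread between lines, 3.27 within replicate 1 and 1.96 within replicate 2, and passed in none of these. It passed under the other settings named here, which supports nothing, since B68 was proposed for this level. The probe sets with both B68 arrays on one side, 32078 at any size, were 357 at 1 log2 unit or more on each array and 80 outside all other arrays. The rank of B68 by calls, 10, was 4 with scan day. With only members at or above 5.05, the heat shock list had 0 calls, since hsp16.9A is dimmer on average. The 42 other named probe sets that had passed kept their direction under each of these settings. All lay on 1 side of the other lines on both B68 arrays, so their direction on a single B68 array was fixed beforehand. With scan day as a fixed term 10 of the 42 lost their call, with all lines 13 and without the replicate block 7. Most lost it against the spread between line means and within a single replicate number.

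Limits: B68 has 2 arrays, 1 with an aborted wash record. The wash, the project entry, the scan day and the replicate cannot be told apart in them. Detection calls were not used, so low levels are bounded only by comparison with the median.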
